A study of Mus musculus with 7 samples.

Results

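Glucocorticoid receptor (NR3C1) sites found in vehicle-treated mouse embryonic fibroblasts, and in no fibroblast library treated with dexamethasone, are described here. Each library has a list of summits, the single positions where its receptor signal peaked. Summits of all 7 lists that lay within 200 bp of a neighbour were joined into sites. The sites were chosen by the presence of summits: they lay on chromosomes 1 to 19, had a summit of at least 1 of the 3 vehicle lists and had none of the 4 dexamethasone lists. This gave 3972 sites, out of 35316 in all and 15216 on these chromosomes with any vehicle summit. The share of vehicle sites without a dexamethasone summit was therefore 26.1% by selection, and nothing is read from it.

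The cells were fibroblasts grown from embryos of dams at 14 to 17 days post coitum and used between passages 4 and 11, in serum-containing medium. They carried either the wild-type genotype or Klf15-/-, a loss of the zinc-finger factor gene Klf15. All received ethanol vehicle or dexamethasone, a synthetic glucocorticoid, for 1 h, and receptor-bound DNA was collected with an in-house receptor antibody (ChIP-seq). Dexamethasone was given to 2 wild-type and 2 Klf15-/- libraries. Vehicle was given to 2 Klf15-/- libraries and to 1 wild-type library, which pooled material because little was at hand. Cell identity and genotype cannot be checked in summit lists, the labels do not say whether a group's libraries came from separate cultures, and a spread between them may be technical.

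The glucocorticoid receptor is held largely in the cytoplasm by chaperones until a hormone binds it. The bound receptor moves to the nucleus, attaches to glucocorticoid response elements or to other factors on open chromatin, and raises or lowers the activity of genes nearby. A ChIP-seq experiment without added hormone records receptor that is on DNA already. The control against which summits were called was not stated, so receptor on DNA and background signal cannot be told apart in the values that follow. Gene names, response elements and DNA sequence of the sites are not analysed here.

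The vehicle lists contributed unequally. The wild-type vehicle list held 1395 of the 3972 sites, the first Klf15-/- vehicle list 1708 and the second 1084. These were 14.2%, 29.4% and 14.1% of the sites of each list on chromosomes 1 to 19. The first Klf15-/- list gave the most sites although it was the shortest, with 5813 sites against 9798 in wild type and 7663 in the second Klf15-/- list. The 2 libraries of the same genotype and treatment differed more from each other than the second one differed from wild type, so no difference between genotypes is read from these shares.

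Most of these sites were seen once. A single vehicle list held 3778 of them: the first Klf15-/- list alone 1564 (39.4% of the 3972), the wild-type list alone 1272 (32.0%) and the second Klf15-/- list alone 942 (23.7%). Of the remaining 194, the Klf15-/- pair shared 71, the wild-type and first Klf15-/- lists 52, and the wild-type and second Klf15-/- lists 50. All 3 vehicle lists held 21. Without the first Klf15-/- list there were 2425 sites, and 73 of them were held by both vehicle lists that were left. Without the second Klf15-/- list 73 were shared as well, and without the wild-type list 92. The number held by all vehicle lists was 32, 35 and 32 when the first or second wild-type or the second Klf15-/- dexamethasone list was left out, and the Klf15-/- pair shared 109 without the first Klf15-/- dexamethasone list.

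The share without a dexamethasone summit was lower where more vehicle lists held the site. It was 39.1% (95% exact binomial interval 38.2 to 40.1%) of the 9651 sites held by 1 vehicle list, 5.63% (4.84 to 6.51%) of the 3072 held by 2 and 0.842% (0.522 to 1.28%) of the 2493 held by 3. Among single-list sites it was 26.2% (24.96 to 27.4%) for wild type, 73.1% (71.2 to 74.95%) for the first Klf15-/- list and 35.5% (33.7 to 37.3%) for the second. Most sites that only the first Klf15-/- list held among vehicle lists were thus without a dexamethasone summit, and most of those of the other lists had one. These intervals cover counting error only, and the counts themselves come from the selection.

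Each summit carries a score assigned by the authors' peak calling, whose scale is unknown, so scores are given as a percentile within their own list (100 is the strongest). In the wild-type vehicle list the sites absent after dexamethasone had a median percentile of 21.7, with 16 of 1395 in the highest quintile of the list. In the second Klf15-/- vehicle list the median was also 21.7, with 12 of 1084 in the highest quintile. In the first Klf15-/- vehicle list the median was 42.5, and 250 of 1708 lay in the highest quintile. Ties recur in these values, since the largest block of summits with a single score held 690 in wild type, 375 in the first and 447 in the second Klf15-/- list. Most tied was the first Klf15-/- list, with 69.9% of its summits sharing a score with at least 9 others, against 58.1% in wild type and 57.4% in the second. Of its summits at these sites in the highest quintile, 63.0% (56.7 to 68.9%) were so tied. The sites were mainly weak ones of their list in the wild-type and the second Klf15-/- libraries, and spread over all ranks in the first.

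By quintile of the list, the share of vehicle sites without a dexamethasone summit fell to under 1% in those libraries and by less in the first Klf15-/- library. In wild type it went from 37.4% (35.1 to 39.7%) in the lowest quintile to 20.8%, 10.4%, 3.69% and 0.814% (0.466 to 1.32%) in the highest. In the second Klf15-/- list it went from 33.3% (30.9 to 35.7%) to 20.2%, 12.0%, 4.26% and 0.795% (0.411 to 1.38%). These values kept close to each other in every quintile. In the first Klf15-/- list it was 33.4% (30.7 to 36.1%), 34.9%, 29.1%, 23.7% and 24.9% (22.3 to 27.7%). The low values of the highest quintile rest on few sites. Leaving out a dexamethasone list leaves more vehicle sites unmatched by construction. In wild type the value was 1.27% without the first wild-type dexamethasone list, inside the interval above. In the second Klf15-/- list it was 1.26% without the second wild-type dexamethasone list, also inside its interval. Without the first Klf15-/- dexamethasone list it was 1.46%, above that interval. With every longer list shortened to the 7325 summits of the first Klf15-/- vehicle list, the highest quintile gave 3.05% in wild type. It gave 39.6% in the first and 4.17% in the second Klf15-/- list. The dexamethasone lists lost summits in this and the first Klf15-/- vehicle list did not, which also leaves more vehicle sites unmatched by construction.

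**Figure D1:**
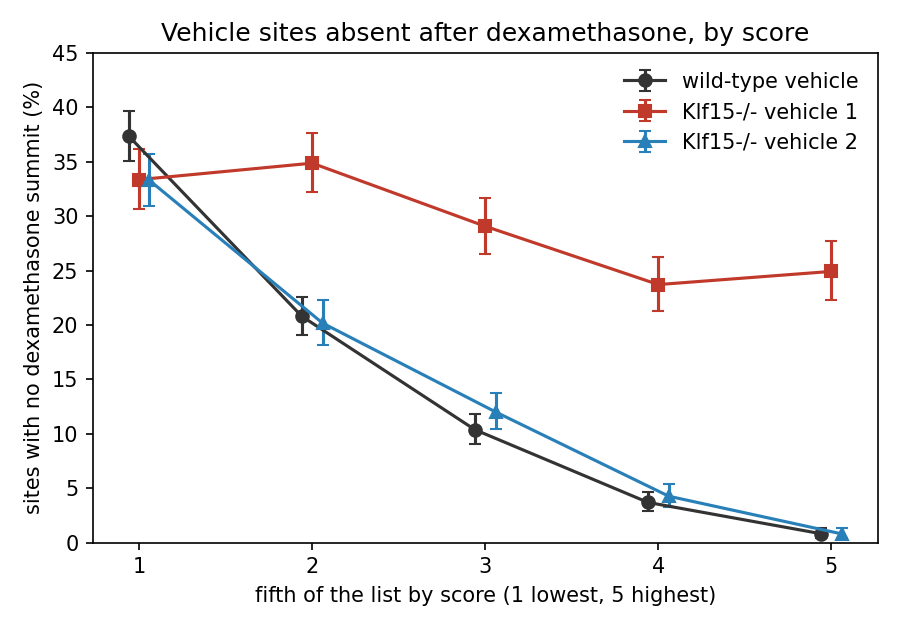
Share of the sites of each vehicle list that had no dexamethasone summit (vertical axis, percent), by quintile of the list in score (horizontal axis, 1 lowest to 5 highest), with 95% exact binomial intervals as bars. Wild type and the second Klf15-/- list drop to 0.814% and 0.795% in the highest quintile, and the first Klf15-/- list goes from 33.4% in the lowest quintile to 24.9% in the highest.

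The first Klf15-/- vehicle library also stood apart in the spacing of its summits. Of its summits on chromosomes 1 to 19, 19.8% had another summit of the same list within 300 bp, against 0.102% to 0.598% in the other 6 lists. Without its 799 summits that had a neighbour of the same list less than 200 bp away, there were 3973 sites against 3972. The share in its highest quintile was then 26.7%, against 24.9% with them. This removal could change the count little, since such summits were already joined and 3772 of 3778 single-list sites held 1 summit. At sites without a dexamethasone summit, 14.2% (12.5 to 15.9%) of its summits had another of the list within 1 kb. At sites of all 4 dexamethasone lists, 36.5% (34.9 to 38.2%) did.

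Presence after dexamethasone went with rank in 2 of the vehicle lists. In wild type, the median vehicle percentile was 21.7 for sites in no dexamethasone list, 31.3 for those in 1, 39.4 for 2, 44.0 for 3 and 67.6 for all 4. In the second Klf15-/- list the corresponding medians were 21.7, 34.4, 41.2, 46.0 and 63.8. The first Klf15-/- list had 42.5, 56.4, 49.1, 42.7 and 50.9, with no such order. Sites in exactly 1 dexamethasone list sit just outside the selection. They were mainly weak ones of that dexamethasone list: their median percentile in it was 24.5 and 25.5 for wild type, and for Klf15-/- 27.1 and 27.3.

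**Figure D2:**
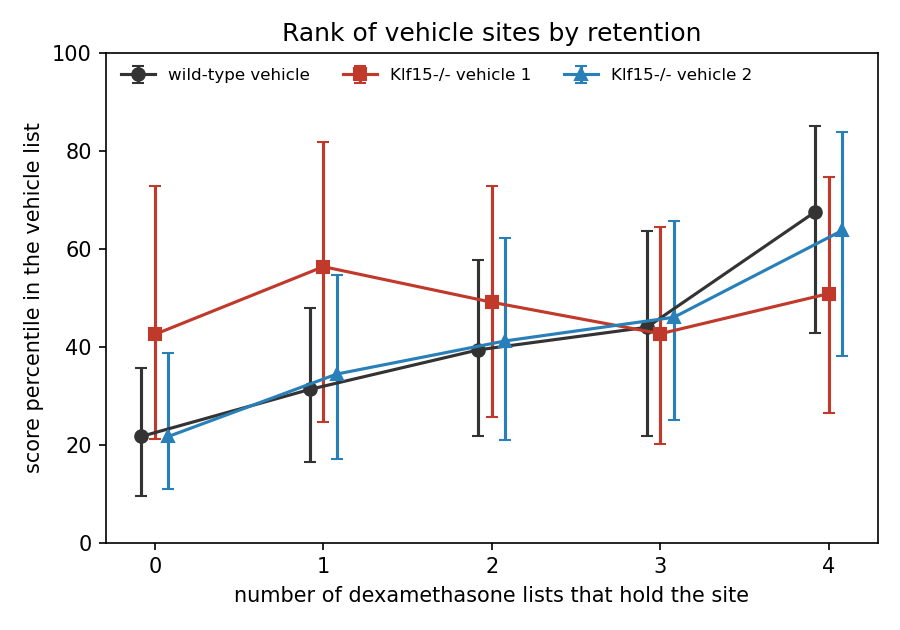
Score percentile in the vehicle list (vertical axis; points are medians and bars the lower and upper quartiles) by the number of dexamethasone lists that held the site (horizontal axis). Sites in no dexamethasone list have a median of 21.7 in the wild-type and second Klf15-/- lists, below every other group of those lists, whereas the medians of the first Klf15-/- list lie between 42.5 and 56.4 with no order.

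The distance to the nearest dexamethasone summit was short for some sites and long for others. Of the 3972, 766 (19.3%, 18.1 to 20.5%) lay within 1 kb of a dexamethasone summit, just beyond the joining distance. At the other end, 600 (15.1%, 14.0 to 16.3%) had none within 100 kb, and the median distance was 14.8 kb. Without the first Klf15-/- vehicle list these numbers were 467 and 295. With a joining distance of 100 bp, 2360 sites lay within 1 kb of a dexamethasone summit, and with 500 bp 168 did.

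At the edge of the rule, 174 sites had their nearest dexamethasone summit in the first 50 bp beyond the joining distance. Another 158 vehicle sites, which were not taken, had theirs in the last 50 bp within it. These groups had medians of 21.7 and 26.2 in wild type, 31.3 and 37.9 in the first and 19.7 and 24.9 in the second Klf15-/- list.

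Sites held by more vehicle lists were more often next to a dexamethasone summit. Within 1 kb were 694 of 3778 single-list sites (18.4%, 17.1 to 19.6%), 59 of 173 held by 2 lists (34.1%, 27.1 to 41.7%) and 13 of 21 held by 3 (61.9%, 38.4 to 81.9%). The median distances were 15.3 kb, 6.09 kb and 0.548 kb. Over 100 kb from any dexamethasone summit were 21.4% (15.5 to 28.3%) of sites of 2 lists and 14.8% (13.7 to 16.0%) of single-list sites. Which lists held the site mattered here. The Klf15-/- pair had 32.4% (21.8 to 44.5%) that far, and a median of 30.8 kb. Wild type with the first Klf15-/- list had 13.5% (5.59 to 25.8%), and with the second 14.0% (5.82 to 26.7%). Single-list sites had 11.3% in wild type, 19.5% in the first and 11.9% in the second Klf15-/- list. All 4 dexamethasone lists had a summit within 1 kb of 327 single-list sites (8.66%, 7.78 to 9.60%), of 33 sites held by 2 vehicle lists (19.1%, 13.5 to 25.7%) and of 11 held by 3 (52.4%, 29.8 to 74.3%). So 11 of the 21 sites that every vehicle list held had a summit of every dexamethasone library close by, with an interval that covers a minority and a majority. With no dexamethasone summit allowed within 1 kb, 3206 sites were left, of which 122 were held by at least 2 vehicle lists and 8 by all 3.

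**Figure D3:**
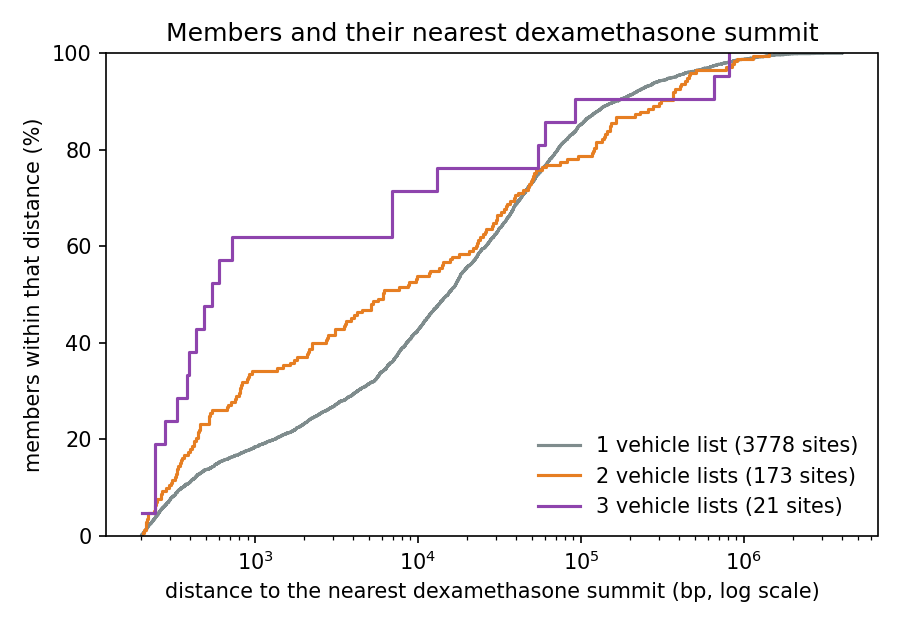
Share of sites (vertical axis, percent) whose nearest dexamethasone summit lies within a given distance (horizontal axis, bp, log scale), for sites of 1, 2 and 3 vehicle lists. The 21 sites of 3 lists reach 61.9% at 1 kb, the 173 of 2 lists 34.1% and the 3778 of 1 list 18.4%.

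The neighbouring dexamethasone site held a vehicle summit in many cases. For the 766 sites within 1 kb, the nearest dexamethasone site held some vehicle summit in 431 cases (56.3%, 52.7 to 59.8%) and was held by all 4 dexamethasone lists in 351 (45.8%, 42.3 to 49.4%). Over all autosomal sites with a dexamethasone summit, 11244 of 29944 held a vehicle summit (37.6%, 37.0 to 38.1%). The 56.3% counts a neighbour once for each site beside it, and the 37.6% counts each dexamethasone site once. No excess is therefore read from this pair of values. The neighbour held some vehicle summit for 268 of 365 sites of the first Klf15-/- list. It did for 119 of 233 of the second and for 104 of 253 of wild type. Counted by list, the same vehicle list had a summit in that neighbour for 202 of 365 sites of the first Klf15-/- list (55.3%, 50.1 to 60.5%). The same held for 77 of 253 wild-type sites (30.4%, 24.8 to 36.5%) and for 77 of 233 of the second Klf15-/- list (33.0%, 27.04 to 39.5%). In these cases 1 library had 2 summits side by side, and only 1 of them matched a dexamethasone summit. Over all dexamethasone sites, the share with a summit of a given vehicle list was not computed. Nor was the share held by all 4 dexamethasone lists, so no excess is read from the values by list or from the 45.8%.

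The 21 sites held by all 3 vehicle lists are the only ones with 3 measurements. They were ordered by the percentile in the list where each ranked lowest, and 9 of the 21 were at or above the median of every list. A single site was above percentile 80 in all of them. It was chr13:74667114-74667126, at percentiles 93.5 in wild type and 97.5 and 92.2 in the Klf15-/- lists. All 4 dexamethasone lists had a summit between 382 and 405 bp away. The highest-ranked site of the 21 thus lay next to summits of every dexamethasone library.

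Next came chr1:87901048-87901060 with 87.8, 94.98 and 72.7 (wild type, then first and second Klf15-/- list) and chr5:61239385-61239390 with 70.8, 81.8 and 72.7. Both were remote from dexamethasone summits. The nearest was 59965 bp away for the first, in 1 Klf15-/- list, and 805 kb away for the second. The 3 vehicle summits spanned 13 bp at the first site and 6 bp at the second.

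Another group lay at the start of their chromosomes, where the mm9 assembly begins with a gap and no autosomal summit of any list came before position 3000407. The site chr11:3004716-3004717 had percentiles of 83.4, 96.2 and 68.7, and each dexamethasone list had a summit 724 to 730 bp away. The site chr17:3029931-3029955 had 62.1, 78.1 and 94.2, with the nearest dexamethasone summit at 6.91 kb. On chromosome 9, chr9:3036578-3036836 had 76.0, 90.5 and 57.7 with a dexamethasone summit at 395 bp, and chr9:3012307-3012310 had 72.1, 49.8 and 76.2 with one at 605 bp. Of the 21 sites, 5 lay before 4 Mb of their chromosome. Their place at the assembly gap was not analysed further here.

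The last 3 of the top 10 were away from chromosome ends. The site chr5:101585302-101585364 had percentiles 57.7, 86.7 and 72.7 and a dexamethasone summit at 6.95 kb. The site chr13:14074314-14074332 had 85.6, 89.0 and 54.7 with one at 13.0 kb in the second Klf15-/- dexamethasone list. The site chr3:61963122-61963140 had 70.8, 56.4 and 54.7 with one at 54.4 kb in the same library. For this last site the nearest wild-type dexamethasone summit was 717440 bp away.

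**Figure D4:**
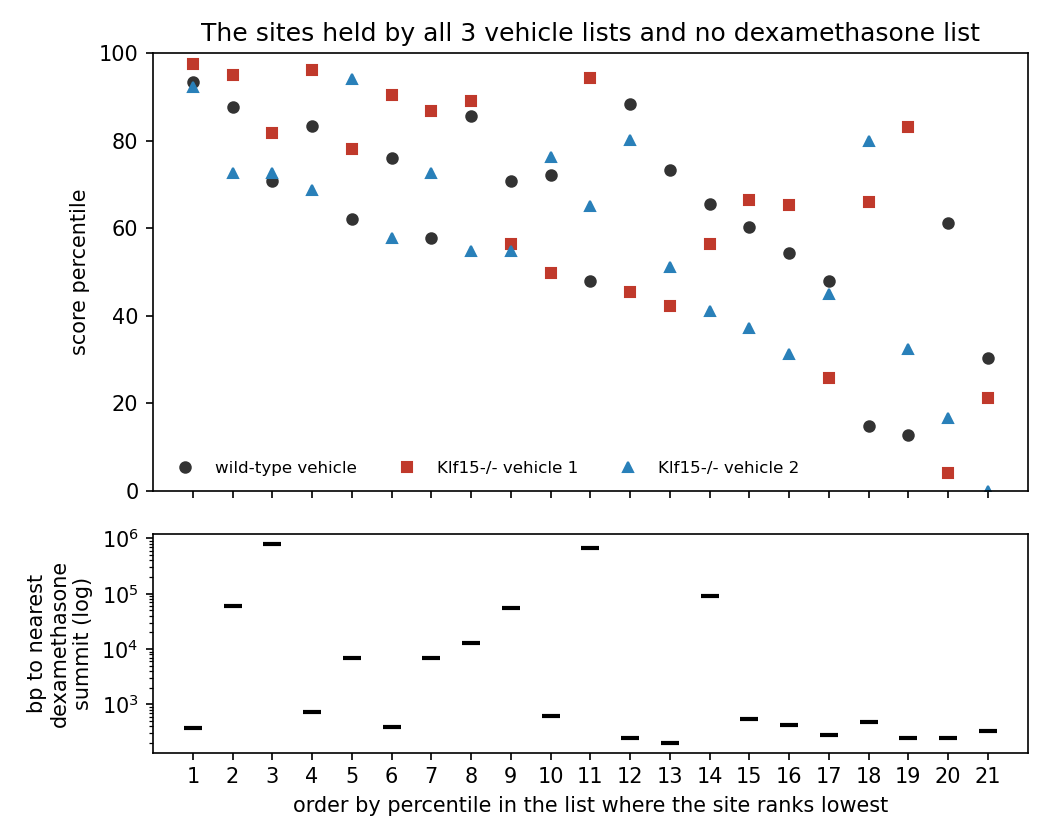
Upper panel: score percentile (vertical axis) in each vehicle list of the 21 sites held by all 3, ordered along the horizontal axis by the lowest of the 3 values. Lower panel: distance to the nearest dexamethasone summit (bp, log scale), under 1 kb for 13 sites and over 10 kb for 6.

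Among sites of exactly 2 vehicle lists, those shared by the Klf15-/- libraries had medians of 83.9 in the first list and 49.2 in the second. The strongest was chr15:74916125-74916253 with 95.8 and 96.4. It lay 0.953 kb from a dexamethasone site that all 7 lists held, at percentile 99.1 or above in each. The next were chr3:13341100-13341106 (91.7 and 89.9) and chr10:54608367-54608375 (89.4 and 88.4), with dexamethasone summits at 141 and 310 kb. Both were in the highest quintile of both Klf15-/- vehicle lists, had no wild-type vehicle summit and were far from any dexamethasone summit. Of the 71 sites of this pair, 23 (32.4%, 21.8 to 44.5%) had no dexamethasone summit within 100 kb, compared with 561 of 3778 single-list sites (14.8%, 13.7 to 16.0%). For the first Klf15-/- list alone that share was 19.5% (17.6 to 21.6%), and for the second alone 11.9% (9.89 to 14.1%).

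Sites shared by wild type and a Klf15-/- list lay nearer to dexamethasone summits, at a median of 3.14 kb with the first and 1.99 kb with the second, against 30.8 kb for the Klf15-/- pair. The strongest with the first list was chr14:69780453-69780471 (92.8 in wild type and 97.8 in Klf15-/-), 348 to 351 bp from a summit of every dexamethasone list. It was followed by chr3:82928067-82928074 (79.5 and 89.8, nearest at 164 kb) and chr15:91552924-91552972 (78.0 and 89.8, nearest at 1.48 kb). With the second list they were chr3:3001818-3001832 (70.8 and 82.7, nearest at 146 kb), chr17:4626325-4626344 (93.8 and 65.1, nearest at 366 kb) and chr3:19857133-19857164 (62.0 and 79.7, nearest at 264 bp). At the last of these, all 4 dexamethasone lists and no vehicle list held the neighbouring site, at percentiles from 53.5 to 87.6.

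The strongest single-list sites differed between the libraries. For the first Klf15-/- list they were chr12:75904927-75904927 at percentile 99.2, chr2:98507405-98507405 at 98.5 and chr2:98502470-98502470 at 98.5. Each had a dexamethasone site 351 to 456 bp away that stood above percentile 99.6 in all 4 dexamethasone lists and in the wild-type and second Klf15-/- vehicle lists. These sites lay beside some of the strongest summits of the series. On chromosome 2 the first Klf15-/- list had no summit in the neighbouring site itself.

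For wild type the strongest were chr6:132413784-132413784 (percentile 89.4, nearest dexamethasone summit 123 kb away), chr4:11917537-11917537 (88.1, 325 bp) and chr9:105721834-105721834 (87.8, 22.5 kb). For the second Klf15-/- list they were chr1:48383665-48383665 (78.8, 555 kb), chr1:172994697-172994697 (77.5, 237 bp) and chr5:52148547-52148547 (75.1, 46.4 kb). Neither list had a single-list site above percentile 90. In both, 1 of the 3 lay within 1 kb of a dexamethasone summit.

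In the highest quintile of the first Klf15-/- vehicle list, 160 of the 250 sites lay over 10 kb from any dexamethasone summit (64.0%, 57.7 to 70.0%), at a median of 124 kb. In its other quintiles, from the lowest up, that share was 45.2%, 56.3%, 52.7% and 64.6% (58.7 to 70.2%). Of all 3972 sites, 43.2% (41.7 to 44.8%) lay within 10 kb. The second Klf15-/- vehicle list held 38 of the 160, at a median percentile of 57.2, and wild type held 12, at a median of 70.8. The first list alone held 114. In the highest quintile of wild type, 6 of 16 sites lay that far, and in that of the second Klf15-/- list 4 of 12. Sites of the highest quintile over 10 kb from a dexamethasone summit were thus most numerous in the first Klf15-/- list.

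Where the 2 Klf15-/- vehicle lists shared a site far from dexamethasone summits, their summits often fell almost on the same base. Between the Klf15-/- vehicle lists, sites over 10 kb from dexamethasone summits had summits a median of 10.5 bp apart, and 36 of 50 were within 20 bp (72.0%, 57.5 to 83.8%). For sites nearer to a dexamethasone summit, 19 of 40 were within 20 bp (47.5%, 31.5 to 63.9%). At sites that all 4 dexamethasone lists held, the median was 58 bp and 419 of 1769 were within 20 bp (23.7%, 21.7 to 25.7%). Only sites with 1 summit of each list, at most 200 bp apart, were counted, because dexamethasone summits can join vehicle summits that lie farther apart.

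Pairs with the wild-type list were fewer. Against the first Klf15-/- list, 15 of 25 remote sites were within 20 bp (60%, 38.7 to 78.9%), compared with 24.7% (22.7 to 26.7%) of those in all 4 dexamethasone lists. Against the second, it was 11 of 23 (47.8%, 26.8 to 69.4%) and 28.7% (27.2 to 30.3%), the second interval lying inside the first. At sites in exactly 1 dexamethasone list, the share was 54.0% (43.7 to 64.0%) between the Klf15-/- lists. There it was 33.3% (23.7 to 44.1%) between wild type and the first Klf15-/- list, and 38.6% (29.1 to 48.8%) with the second. Close spacing was therefore seen at sites with and without a dexamethasone summit. The question was posed after the data were seen, and no test of it was made.

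**Figure D5:**
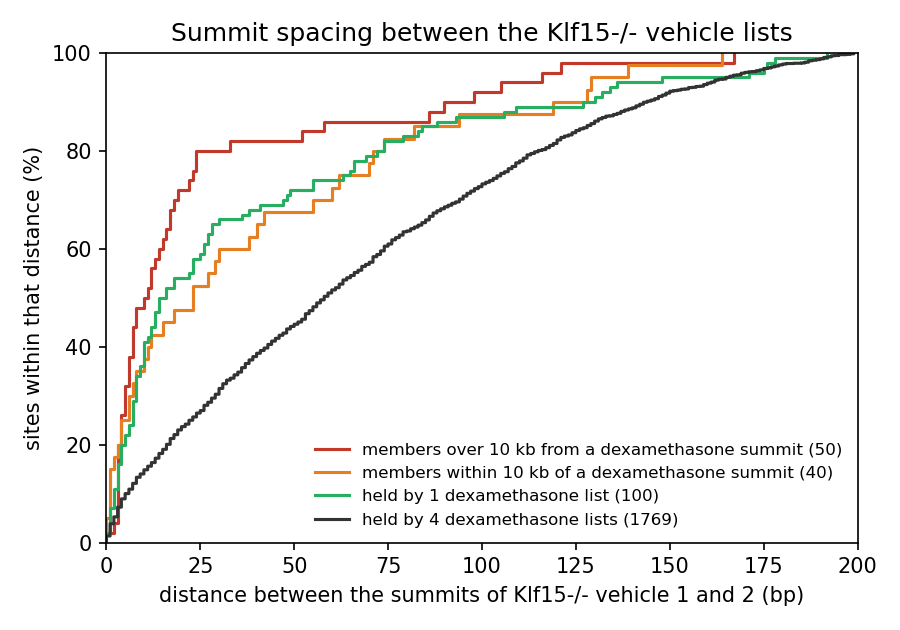
Share of sites (vertical axis, percent) with the summits of the first and second Klf15-/- vehicle lists within a given distance (horizontal axis, bp), for sites with 1 summit of each list at most 200 bp apart. Remote sites without a dexamethasone summit have a median of 10.5 bp and sites in all 4 dexamethasone lists one of 58 bp.

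The sites were spread over all 19 autosomes. The share of vehicle sites without a dexamethasone summit ranged from 19.3% on chromosome 18 (16.2 to 22.8%) to 32.7% on chromosome 5 (29.7 to 35.9%). By list, it ranged over chromosomes from 7.98% to 19.7% in wild type, from 22.2% to 36.2% in the first Klf15-/- list and from 9.06% to 19.2% in the second. The first Klf15-/- list had the highest share of the 3 on 19 of 19 autosomes. Wild type was above the second Klf15-/- list on 7. The excess of the first library was thus present on every autosome, while the other vehicle libraries alternated.

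Some stretches held many of these sites. Of 1729 windows of 1 Mb with any, 682 had 1 and 11 had at least 10. In those 11, 165 of the 316 vehicle sites had no dexamethasone summit (52.2%, 46.6 to 57.8%). The windows were picked for their number of such sites, so this share and its interval follow in part from the choice. The first Klf15-/- list held 123 of the 165 (74.5%, 67.2 to 81.0%), compared with 41.6% (40.1 to 43.2%) of the sites in other windows. Windows rich in sites of that list were more readily picked, so nothing is read from this contrast. The richest window was at 3 to 4 Mb of chromosome 9, with 35 sites, all in the first Klf15-/- list. There that list had 76 summits, the other vehicle lists 29 and 30, and the dexamethasone lists 19 to 23.

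Dexamethasone summits were many in some of the other rich windows and few in others. At 3 to 4 Mb of chromosome 11 (21 sites), 14 to 16 Mb (12 and 20) and 104 to 105 Mb (13) of chromosome 5, and 17 to 18 Mb of chromosome 6 (10), there were 64 to 145 dexamethasone summits over the 4 lists. At 145 to 147 Mb of chromosome 4 (12 and 12 sites) and 85 to 86 and 87 to 88 Mb of chromosome 1 (10 and 10), they numbered 6 to 10, and 83.3% to 92.3% of the vehicle sites had none. The window at 72 to 73 Mb of chromosome 8 (10 sites) was between these, with 30 dexamethasone summits. The windows of chromosomes 4 and 1 had 11 to 14 vehicle sites each. Of their sites without a dexamethasone summit, the first Klf15-/- list held 9 of 12, 7 of 12, 10 of 10 and 9 of 10. Before 4 Mb, over all autosomes, 121 of 249 vehicle sites had no dexamethasone summit (48.6%, 42.2 to 55.0%). Leaving out the 11 windows left 3807 sites.

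The total depended on how deep each list went. With only the vehicle summits above the median score of their list, 1007 sites were left, 714 of them in the first Klf15-/- list alone. With only the dexamethasone summits above their median, there were 6815, of which 677 were held by at least 2 vehicle lists. Read depth is unknown from these files, so absence of a summit does not show absence of the receptor.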

How the data were processed

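Receptor ChIP-seq was measured in 7 libraries grouped by their titles. CASAVA 1.4, Bowtie2 and SAMtools and the build mm9 are named in the submitters' processing notes. No peak caller, control or threshold is named there. Each deposited file lists the summits of 1 library, 1 bp each, with a score made by the authors' peak caller. Lists held 7325 to 20169 summits, and read depth is unknown.

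Summits were joined by single linkage (gap 200 bp). Scores were used as percentiles within a list, ties sharing their mean rank, and a site took its highest summit. Shares have exact (Clopper-Pearson) 95% intervals, for counting error only. The selection uses the treatment contrast, so no test was made. Sequence and gene position are not analysed here, since no mm9 genome was used. Members, lists and rules were chosen with earlier results of these data known. Named sites were the top 10 of all 3 vehicle lists and the top 3 of each other combination, by lowest percentile. Alternatives were other gaps, distances, score filters, equal list lengths, all chromosomes and each library left out. The linkage, membership and distance code was tested on simulated lists. Software was pandas 2.3.3 with scipy 1.17.1, matplotlib 3.10.9 and numpy 2.4.6, under Python 3.11.15. Coordinates are mm9, counted from 1.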

Additional observations from a re-analysis of the deposited data

How the results depend on the processing

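With 19 results under 17 alternatives, 204 of 305 recomputed values stayed within their bounds (a factor of 1.5 for counts, the 95% interval for shares and medians) and 101 moved. The share of vehicle sites, 26.1% as reported, was 34.2% with a gap of 100 bp, 23.0% with 500 bp, 21.1% and 17.7% with no dexamethasone summit within 1000 and 5000 bp, 13.4% and 44.6% with the vehicle or the dexamethasone summits above the median score, 45.8% with lists of equal length (7325 summits) and 27.7% with all chromosomes. The number held by at least 2 vehicle lists, 194 as reported, was 122 and 100 under the distance rules, 72 and 677 under the score filters and 747 with equal lengths. The number of sites, 3972 as reported, moved to 1007 and 6815 under the score filters. It was 5588 with a gap of 100 bp, 3350 with 500 bp and 5841 with equal lengths, all inside the factor of 1.5. The median percentile in the first Klf15-/- list was 51.5 with the 5000 bp rule, 72.9 with vehicle summits above the median score and 51.8 with all chromosomes. The wild-type median was 61.3 and 26.8 under the score filters and 47.9 with equal lengths, and that of the second Klf15-/- list was 63.7 under the vehicle filter and 35.2 with equal lengths. A filter on vehicle scores raises these medians by construction, and fewer dexamethasone summits leave more vehicle sites unmatched by construction. The distance rules only remove sites, which lowers the number and the share by construction. A shorter gap can only leave more vehicle summits unjoined to a dexamethasone summit, and a longer gap can only leave fewer. For the remaining moves the cause was not tested. With each library left out in turn, the number of sites ranged from 2425 to 4440, the share from 18.5% to 29.1%, and the number in at least 2 vehicle lists from 73 to 272. The medians ranged from 21.7 to 21.7 in wild type, from 42.2 to 44.5 in the first and from 21.7 to 24.9 in the second Klf15-/- list. The wild-type median fell on a score that many sites shared, so it could stay in place while sites were added or removed. The share in the highest quintile of the first Klf15-/- list was 17.1% to 39.6% over all alternatives, that of wild type 0.305% to 3.05% and that of the second Klf15-/- list 0.331% to 4.17%. Leaving out windows of at least 10 sites was chosen after the data were seen. No paired analysis was possible because the result comes from no test and wild type has 1 vehicle library. Alternatives on sequence and gene position were not run. Read depth is unknown and limits every count of absent sites.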

Other observations

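Outside the autosomes, chromosome X had 771 vehicle sites, of which 413 had no dexamethasone summit (53.6%, 95% exact interval 49.97 to 57.1%). The first Klf15-/- vehicle list held 334 of them, the second 78 and wild type 52. Chromosome Y had 186 vehicle sites, 100 of them without a dexamethasone summit (53.8%, 46.3 to 61.1%), with 94, 17 and 1 in these lists. The mitochondrial genome had 15 vehicle sites, and 4 had none.

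Many summits of a list shared exactly the same score. In the highest quintile of the first Klf15-/- vehicle list, 160 of 254 summits at sites without a dexamethasone summit had a score that at least 10 summits of the list shared (63.0%, 56.7 to 68.9%). At sites of the same quintile that all 4 dexamethasone lists held, 40 of 518 did (7.72%, 5.57 to 10.4%). In the wild-type list, over all ranks, the shares were 83.0% (80.9 to 84.9%) and 43.5% (42.1 to 44.8%).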
